A study of Mus musculus with 6 samples.

Results

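Tnnt3, Eno3, Atp2a1, Mylpf and Myf6 are 5 genes best known from skeletal muscle, and they were followed here in lungs of mice with ovalbumin-induced allergic airway inflammation. They were taken as the rows of the deposited value table that carry these gene symbols and have a value on at least 4 of the 6 arrays. All 5 met that rule, each with 1 probe and with a value on all 6 arrays, among 9774 genes that could be tested. They were picked because their ratios lie on both sides of 0, so the ratios are given below as a description, with no test of the 5 genes.

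Each of the 6 two-colour arrays compared lung RNA of 1 C57 mouse, sensitized and challenged with ovalbumin (OVA, an egg protein used to provoke allergic airway disease), with 1 shared pool made from the lungs of control C57 mice. Both RNAs were amplified before labelling. The labels give no age, sex, substrain, dose, time after challenge or number of mice in the pool, and they state no treatment of the control mice. The values are log ratios, read here as log2, and neither the base of the logarithm nor the direction of the ratio is given in the sources used here. Signs are therefore those of the deposited ratio and are not assigned to the OVA mice or to the pool. With the opposite direction, every sign below would turn, and with a natural logarithm every fold would be larger.

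Skeletal muscle fibres shorten when myosin heads of the thick filament pull on actin of the thin filament. Calcium released from the sarcoplasmic reticulum starts this by binding to troponin, and a calcium pump ends it by returning the ion to the store. Fast fibres use their own forms of troponin, myosin light chain, calcium pump and glycolytic enzymes, and a small family of transcription factors turns muscle genes on during development. The lung has smooth muscle in airways and vessels and, in mice, heart muscle cells around the large pulmonary veins, but it is not a source of skeletal muscle fibres. The files hold ratios and no levels, so the lung origin of the RNA could not be checked against the level of a marker. In a ratio from whole tissue, fewer cells of a type and less RNA per cell cannot be told apart.

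The arrays gave between 10922 and 13132 values. The 10 sequences spotted 17 times each varied within an array with a median SD of 0.0911 to 0.136. This is the spread between spots of these sequences, and it does not cover differences between arrays. The array of mouse 3 stood apart, with 14 values at -1 or below and 13 at 1 or above. The other arrays had 137 to 353 and 36 to 194 such values. The means of the 5 genes, and the list counts that mouse 3 changes, are given with and without it.

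Tnnt3 encodes the troponin T of fast skeletal muscle, the subunit that anchors the calcium switch to tropomyosin. Its log2 ratios in mice 1 to 6 were 1.12, 0.88, 0.28, 0.72, 0.46 and 0.77. All 6 were positive, highest in mouse 1 and lowest in mouse 3. The mean was 0.71 ± 0.30 (SD, n = 6), a ratio 1.63-fold from equality, and without mouse 3 it was 0.79 ± 0.24.

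Eno3 encodes the muscle form of enolase, an enzyme of glycolysis. Its log2 ratios were 0.68, 0.94, 0.23, 0.79, 0.46 and 0.76 in mice 1 to 6. They were positive in all 6 mice, and again mouse 3 was lowest and mouse 5 next. The mean was 0.64 ± 0.26 (SD, n = 6), 1.56-fold from equality, and 0.73 ± 0.18 without mouse 3. Tnnt3 and Eno3 lay close to each other in most mice. Tnnt3 minus Eno3 was 0.061 ± 0.19 (SD, n = 6), with Tnnt3 higher in 3 of 6 mice and the widest gap, 0.44, in mouse 1.

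Atp2a1 encodes SERCA1, the calcium pump of fast fibres that refills the sarcoplasmic reticulum. Its log2 ratios were -2.02, -1.10, 0.067, -1.58, -1.56 and -1.62 in mice 1 to 6. The gene was negative in 5 mice and near 0 in mouse 3. The mean was -1.30 ± 0.73 (SD, n = 6), 2.47-fold from equality. Without mouse 3 it was -1.58 ± 0.32, 2.98-fold from equality.

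Mylpf encodes the fast regulatory light chain of myosin, a calcium-binding protein that stiffens the neck of the myosin head and tunes its force. Its log2 ratios were -2.20, -0.96, -0.045, -1.54, -0.46 and -1.39. All 6 were negative, though in mouse 3 the ratio was closer to 0 than the SD of repeated spots within an array. The mean was -1.10 ± 0.78 (SD, n = 6), 2.14-fold from equality, and -1.31 ± 0.65 without mouse 3. Mylpf and Atp2a1 differed most in mouse 5, where Mylpf was higher by 1.10. In the other mice the gap was at most 0.227.

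Myf6 encodes MRF4, a basic helix-loop-helix factor of the family that also holds Myod1, Myf5 and Myog. Its log2 ratios were -0.30, -0.20, -0.25, -0.18, -0.30 and -0.28. It was negative in all 6 mice and, unlike the other 4 genes, was no nearer to 0 in mouse 3 than in the rest. The mean was -0.25 ± 0.053 (SD, n = 6), 1.19-fold from equality. This SD was smaller than that of repeated spots within an array, and 3.79% of the 8663 probes with 6 values had an SD as small or smaller. Of those 8663 probes, 16% were positive and 14.3% negative in all 6 mice, so the same sign in every mouse is common on these arrays, which all share 1 pool. Since the 5 genes were chosen by these signs, nothing is read from their number.

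**Figure D1:**
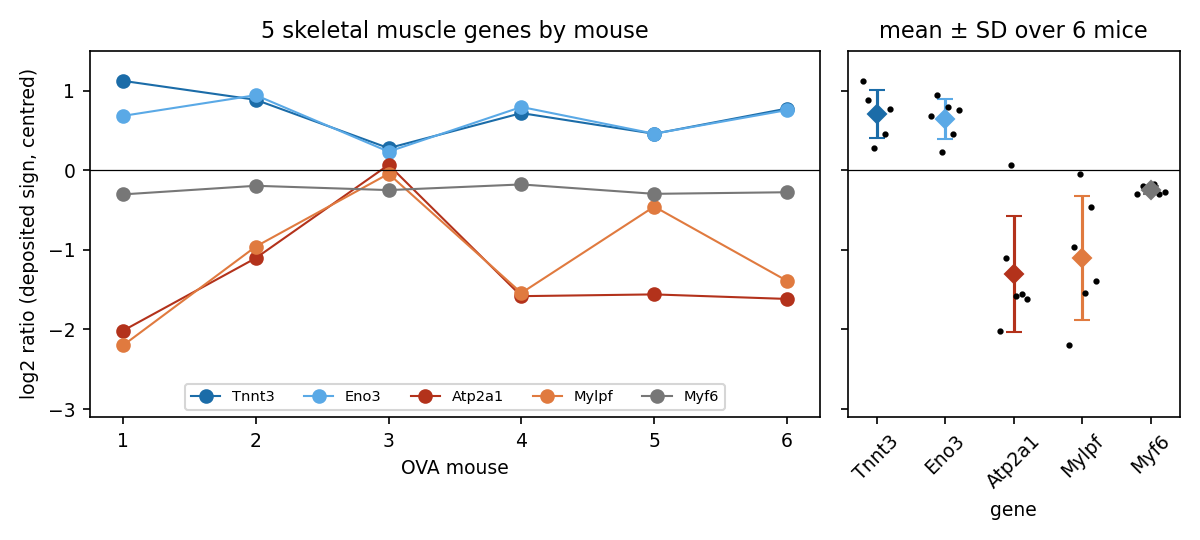
Left, the centred log2 ratio (vertical axis, deposited sign) of the 5 genes in each of the 6 OVA mice (horizontal axis); right, the 6 values of each gene as points with the mean and SD. Tnnt3 and Eno3 stay above 0, Myf6 holds near -0.25, and Atp2a1 and Mylpf spread from about 0 in mouse 3 to -2.02 and -2.20 in mouse 1.

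Among the means of all 11629 tested probes, that of Atp2a1 was the 75th and that of Mylpf the 106th from the lowest, while Tnnt3 was the 131st and Eno3 the 164th from the highest. Myf6 was at percentile 13.0. Ranks within an array do not depend on how widely its ratios spread. By that measure Tnnt3 was between percentiles 93.5 and 98.8 in the 6 arrays and Eno3 between 91.0 and 98.6, with mouse 3 lowest for both. Atp2a1 was below percentile 2 in the arrays of 5 mice and at 67.5 in mouse 3. Mylpf was at percentile 38.2 in mouse 3 and 7.19 in mouse 5, and below 3 in the other 4. Myf6 was between percentiles 10.1 and 22.3, with mouse 3 lowest. The position of Tnnt3, Eno3 and Myf6 in mouse 3 was thus near that in the other mice, and the position of Atp2a1 and Mylpf was not.

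The promoter stretches below are those of the 3 of 5 genes found in the RefSeq table used here (GRCm38.p6). They are shown because Atp2a1 and Mylpf have similar ratios and Eno3 lies on the other side of 0. Each is the 250 bases before the start of transcription, 5′ to 3′ on the strand of the gene. Capitals mark every match to CANNTG, the E-box core that basic helix-loop-helix factors such as Myf6 bind. The core is its own reverse complement, so both strands are covered.
Atp2a1 (chr7:126463074-126463323, minus strand): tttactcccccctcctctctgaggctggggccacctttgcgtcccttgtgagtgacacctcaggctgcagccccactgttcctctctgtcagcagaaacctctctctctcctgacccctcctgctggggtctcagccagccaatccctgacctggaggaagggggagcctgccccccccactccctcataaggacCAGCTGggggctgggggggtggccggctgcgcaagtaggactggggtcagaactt
Mylpf (chr7:127211358-127211607, plus strand): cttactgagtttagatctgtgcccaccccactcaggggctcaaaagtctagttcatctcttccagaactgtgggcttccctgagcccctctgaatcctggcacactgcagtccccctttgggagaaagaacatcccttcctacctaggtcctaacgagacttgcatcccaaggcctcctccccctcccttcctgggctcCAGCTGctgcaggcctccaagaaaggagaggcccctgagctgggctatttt
Eno3 (chr11:70656926-70657175, plus strand): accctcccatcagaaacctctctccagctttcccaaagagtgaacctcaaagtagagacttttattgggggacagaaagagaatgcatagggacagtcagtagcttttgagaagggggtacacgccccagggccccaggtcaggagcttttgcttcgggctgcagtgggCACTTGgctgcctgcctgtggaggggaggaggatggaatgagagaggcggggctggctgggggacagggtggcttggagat

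Each of the 3 stretches held 1 match to CANNTG. In Atp2a1 and in Mylpf it was CAGCTG, starting 55 and 51 bases before the start of transcription, and in Eno3 it was CACTTG, starting 81 bases before. Of all 32851 stretches of this length in the table, 66.2% held at least 1 CANNTG and 13.0% at least 1 CAGCTG, which is one form of CANNTG. The MEF2 motif, searched on both strands, was in none of the 3 and in 2.92% of all. These matches describe the letters in these windows. The arrays measured no binding, and no link between a match and a ratio was tested.

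The other genes of the same pathways were read from lists set out by role, leaving the 5 genes out. Each probe was tested against 0 with limma, with Benjamini-Hochberg adjustment over all 11629 tested probes, and called at an adjusted p under 0.05. In all, 24.4% of probes were called. Counted once per gene, 12.7% of the 9774 genes were called on the positive side and 12.8% on the negative side, and the median of the gene means was -0.0033. Of 109 other genes in the 5 muscle lists, 84 had a probe, and 62 of them had enough values for a test. Of these, 20 were called positive (32.3%) and 2 negative (3.23%), with a median log2 ratio of 0.12. Mylpf and Atp2a1 thus lay on the side where few of these genes were called, and Tnnt3 and Eno3 on the side of most calls. The 5 genes were chosen by sign and the lists with earlier results known, so nothing is read from this. Some of the called genes, such as Cox8b and Fabp3, are also strong in heart or fat. The count moved with single mice: without mouse 4 it was 10 positive and 1 negative, and without mouse 3 it was 28 and 3. Without mouse 2 it was 14 and 0, and without mouse 1 it was 15 and 1. Without mouse 5 it was 17 and 1, and without mouse 6 it was 14 and 1. Calls over all probes also fell without mouse 2, 4 or 6, as given in the last section. Whether the losses in this and the later lists differ from that over all probes was not tested.

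**Figure D2:**
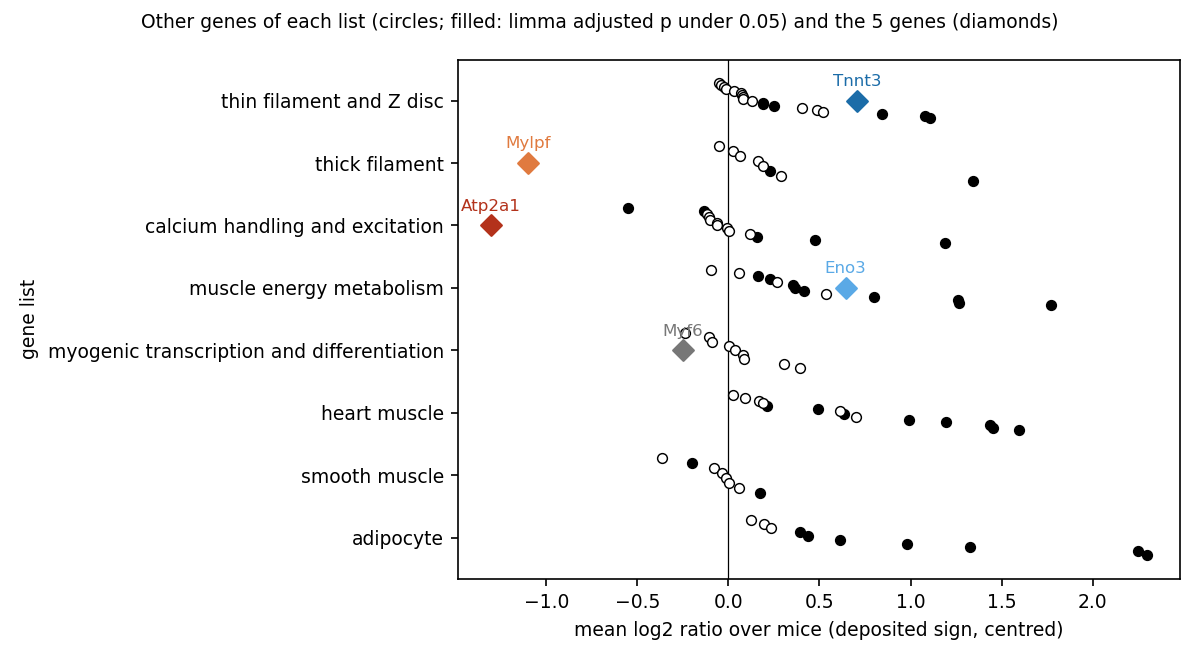
Mean log2 ratio over mice (horizontal axis, deposited sign) of every tested gene of the 5 muscle lists and of the heart muscle, smooth muscle and adipocyte lists (rows). Filled circles were called at a limma adjusted p under 0.05, open circles were not, and diamonds are the 5 genes in the row of their role, drawn without a call; Mylpf and Atp2a1 lie to the left of every circle.

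Of 19 other genes of the thin filament and the Z disc, which anchors it, 9 were positive and 0 negative at an unadjusted p under 0.05 (limma). The median was 0.13. After adjustment 6 were called positive (31.6%) and 0 negative, against 12.7% and 12.8% of all genes. They included Ldb3, a Z disc adaptor, at 1.11 ± 0.67 (SD, n = 6), Tnnc1, the calcium-binding troponin C of slow fibres and heart, at 1.08 ± 0.51 and Myoz2, a calcineurin-binding Z disc protein of slow fibres and heart, at 0.84 ± 0.50. Tnnt1, the troponin T of slow fibres, was at 0.25 ± 0.13 with a call, positive in 6 of 6 mice like the first 3. The fast troponin partner of Tnnt3 with enough values, Tnnc2, had no call, at 0.08 ± 0.13 over 4 mice with values between -0.04 and 0.22. The skeletal actin Acta1 had no call either, at 0.07 ± 0.14 (n = 5). The fast troponin I gene Tnni2 had 3 values, from -0.02 to 0.093, and was not tested. Each of these values of the fast troponins lay below that of Tnnt3 in the same mouse. Without mouse 3 the list had 9 calls. Without mouse 4 it had 3, and Ldb3 (1.07) and Tnnt1 (0.23) no longer passed.

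Of 8 other thick filament genes, 2 were called positive and 0 negative (limma, 5 and 0 at an unadjusted p under 0.05), with a median of 0.18. Those shares were 25% and 0% in this short list, against 12.7% and 12.8% of all genes. Myl1 encodes the fast essential light chain, which sits beside the product of Mylpf on the same myosin neck. Its log2 ratios were 1.70, 1.69, 0.66, 1.28, 0.99 and 1.75 in mice 1 to 6, with a mean of 1.34 ± 0.45 (SD, n = 6, limma adjusted p = 0.0035), and it kept its call without any single mouse. Myl1 was positive and Mylpf negative in each of the 6 mice, though in mouse 3 Mylpf was near 0, at -0.045. The 2 light chains of fast myosin thus lay on opposite sides, and Mylpf was chosen with its sign known. Myom1, which cross-links thick filaments, was at 0.23 ± 0.13 with a call that was lost without mouse 4 (0.21) or mouse 6 (0.24), which left 1 call in the list in either case. The fast myosin heavy chain Myh2 had no call, at 0.16 ± 0.13 (limma adjusted p = 0.0617). Without mouse 3 the list had 4 calls.

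Of 13 other genes of calcium handling and excitation, 3 were called positive (23.1%) and 2 negative (15.4%), with a median of -0.06. Of all genes, 12.7% were called positive and 12.8% negative, so the negative share was near that of all genes. Hrc, a calcium-binding protein of the sarcoplasmic reticulum lumen, was at 1.19 ± 0.69 (SD, n = 6, limma adjusted p = 0.0129) with values from 0.14 in mouse 3 to 2.19 in mouse 2, and kept its call without any single mouse. Trdn, which couples the calcium store to its release channel, was at 0.48 ± 0.29, and Casq1, the calcium buffer of the store in fast fibres, at 0.16 ± 0.08. These 3 lay on the side opposite to Atp2a1, the pump that fills the store. Others of the store and its release lay slightly on the side of Atp2a1, without a call: the release channel Ryr1 at -0.10 ± 0.14 (n = 6), the calcium buffer Casq2 at -0.10 ± 0.17 (n = 6), the pump regulator Sln at -0.06 ± 0.12 (n = 5) and Jph1, which ties the store to the surface membrane, at -0.06 ± 0.18 (n = 5). The 2 negative genes were subunits of the acetylcholine receptor of the nerve-muscle synapse, Chrne at -0.55 ± 0.25 (n = 4) and Chrng at -0.13 ± 0.06 (n = 6). The calls of Trdn, Casq1, Chrne and Chrng depended on single mice. Trdn was lost without mouse 2 (0.42), 4 (0.47) or 6 (0.435), Casq1 without mouse 1 (0.16), 2 (0.14), 4 (0.14) or 5 (0.17), Chrne without mouse 2 (-0.58) or 6 (-0.504), and Chrng without any mouse but 6 (-0.12 to -0.14). The list had 4 positive calls without mouse 3 and 1 without mouse 2 or mouse 4, and its negative calls were 0 without mouse 2 and 1 without mouse 1, 4, 5 or 6.

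Of 13 other genes of muscle energy metabolism, 9 were called positive and 0 negative (limma, 11 and 0 at an unadjusted p under 0.05), with a median of 0.37. This was the list of Eno3. Its positive share was 69.2%, against 12.7% of all genes. Cox8b and Cox7a1, subunits of cytochrome oxidase found in heart, muscle and brown fat, were at 1.77 ± 0.81 and 1.27 ± 0.55 (SD, n = 6), and the insulin-responsive glucose transporter Slc2a4 at 0.80 ± 0.22. These 3 kept their calls without any single mouse. The fatty acid binding protein Fabp3 was at 1.26 ± 0.79 (n = 5) and lost its call without mouse 1 (1.08), 4 (1.22) or 6 (1.09), and the muscle creatine kinase Ckm was at 0.37 ± 0.32 and lost its call without mouse 1 (0.31), 2 (0.36), 4 (0.32) or 6 (0.32). Without mouse 4 the list had 5 calls. Several of these genes are not particular to skeletal muscle, as Cox8b, Cox7a1, Slc2a4 and Fabp3 are also strong in heart or fat.

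Of 9 other genes of myogenic transcription and differentiation, 0 were called in limma, with 1 positive and 2 negative at an unadjusted p under 0.05 and a median of 0.04. Among all genes, 12.7% were called positive and 12.8% negative. The list was that of Myf6. Myf5, its neighbour in the family, was at -0.24 ± 0.22 (SD, n = 6, limma adjusted p = 0.0626), negative in 5 of 6 mice, and passed without mouse 3 (-0.30). Myog was at 0.08 ± 0.11 with no call, and the probe of Myod1 had no value on any array. Six4, a homeobox factor that acts on muscle genes, was at 0.39 ± 0.35, and Dmd, the dystrophin gene, at 0.31 ± 0.39, both without a call and both past the threshold without mouse 3 (0.50 and 0.43). Without mouse 3 the list had 2 positive calls and 1 negative call.

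Family members of the 5 genes were read beside them, from a list that does not hold every relative. Of 6 that could be tested, 4 were positive and 1 negative at an unadjusted p under 0.05 (limma). After adjustment 4 were called positive (66.7%) and 0 negative, against 12.7% and 12.8% of all genes. Beside Tnnt1 and Myl1, given above, these were Eno2, the neuronal enolase, at 0.22 ± 0.13 (SD, n = 6) and the widely expressed regulatory light chain Myl12b at 0.28 ± 0.16. Eno2 was on the side of Eno3, and it lost its call without mouse 1 (0.21), 2 (0.21), 4 (0.19) or 6 (0.21). Myl12b was opposite to Mylpf and lost its call without mouse 2 (0.26), 4 (0.25) or 6 (0.25). The pump Atp2a2 of heart and most other tissues, the closest relative of Atp2a1, had values in 3 mice, from -0.48 to -0.30, and was not tested. Without mouse 4 there was 1 positive call left in this list, and without mouse 2 or mouse 6 there were 2. Without mouse 3 there were 4 positive calls and 1 negative call. The sequences of the probes were not used here, so cross-hybridization between relatives was not tested.

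Marker lists of tissues that lie in or beside the lung were read in the same way. Of 6 other skeletal muscle markers, 2 were called positive, Myl1 and Ckm, and 0 negative (limma, 3 and 0 at an unadjusted p under 0.05), with a median of 0.15. Both also stand in the muscle lists above. The positive share was 33.3% in this short list, against 12.7% of all genes. Without mouse 1, 2, 4 or 6, Myl1 alone was called. Tnnt3 lies on the side of these called markers, and Mylpf and Atp2a1, which also mark fast fibres, lie on the other, as they were chosen to.

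Heart muscle and fat markers were called on the positive side alone, where 12.7% of all genes were called. Of 14 heart muscle genes, 8 were called positive (57.1%) and 0 negative (limma, 12 and 0 at an unadjusted p under 0.05), with a median of 0.63. They included the atrial light chain Myl4 at 1.597 ± 1.00 (SD, n = 6), the natriuretic peptide Nppb at 1.45 ± 0.28, the heart myosin Myh6 at 1.44 ± 1.22 and the heart actin Actc1 at 1.20 ± 0.80. Of these 4, Nppb kept its call without any single mouse. Myl4 lost it without mouse 2 (1.45) or 4 (1.52), Actc1 without 2 (1.06), 4 (1.253) or 6 (1.17), and Myh6 without 1 (1.17), 2 (1.21), 4 (1.34) or 6 (1.47), and the list had 3, 2 and 4 calls without mouse 2, 4 and 6. Without mouse 3 it had 11, with Myh6 at 1.72. Of 10 adipocyte genes, 7 were called positive (70%) and 0 negative (limma, 9 and 0 at an unadjusted p under 0.05), with a median of 0.52, and the hormone Adipoq at 2.30 ± 1.30, the lipid droplet protein Cidea at 2.25 ± 0.69, Ucp1 of brown fat at 1.32 ± 0.27 and the desaturase Scd1 at 0.98 ± 0.55 kept their calls without any single mouse. The adipocyte list had 7 calls without mouse 3 too, with Adipoq at 2.67.

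The mean of the heart muscle list in mice 1 to 6 was 1.21, 1.10, 0.13, 0.83, 0.33 and 0.67. That of the adipocyte list was 1.20, 0.96, 0.51, 1.06, 0.51 and 1.28, and that of the skeletal muscle list 0.53, 0.61, 0.13, 0.37, 0.26 and 0.47. All 3 lists were lower in mice 3 and 5 than in the other 4, and so were Tnnt3 and Eno3. The arrays of mice 3 and 5 also had the fewest values at 1 or above, 13 and 36, against 77 to 194 on the others. Whether the lists, Tnnt3 and Eno3 were low in these mice beyond this array-wide difference was not tested. The part of heart muscle or fat RNA in the ratios of Tnnt3 and Eno3 was not tested.

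**Figure D3:**
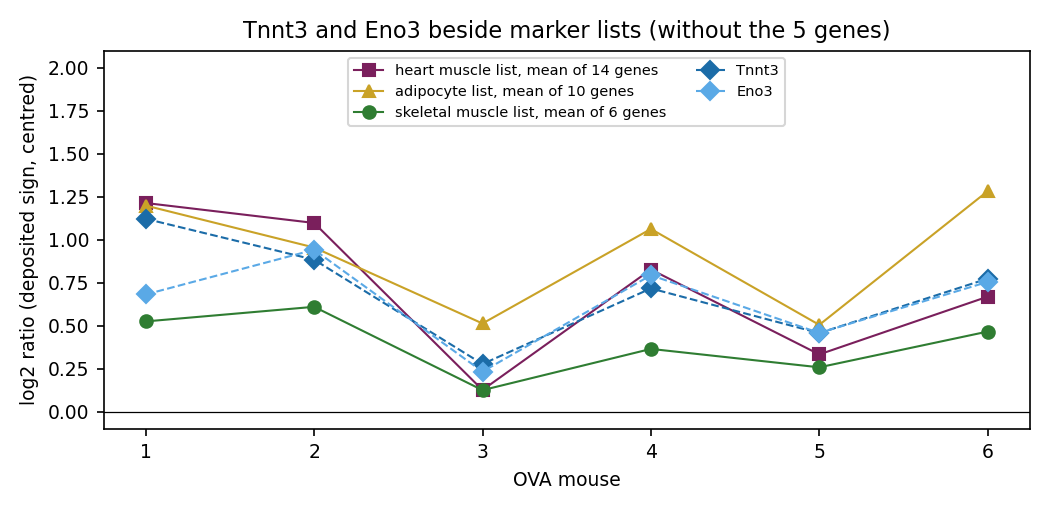
Mean log2 ratio (vertical axis, deposited sign) of the heart muscle, adipocyte and skeletal muscle lists without the 5 genes, and the log2 ratios of Tnnt3 and Eno3, in each OVA mouse (horizontal axis). All 5 lines are low in mice 3 and 5, whose arrays also had the fewest high ratios.

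Of 8 smooth muscle genes, 1 was called on each side (median -0.03), the calponin Cnn1 at -0.20 ± 0.09 and Synpo2, an actin-bundling protein, at 0.17 ± 0.11 (SD, n = 6). Of 8 genes of the oesophagus and squamous epithelium, 1 was called on each side (median -0.05), the basal keratin Krt5 at 0.40 ± 0.23 and the cornified envelope protein Lor at -0.19 ± 0.15. In both lists the share called was 12.5% on each side, near the 12.7% positive and 12.8% negative of all genes. These calls were lost without single mice: Cnn1 without mouse 2 (-0.20) or 4 (-0.20), Synpo2 without any mouse but 3 (0.14 to 0.18), Krt5 without mouse 4 (0.38) and Lor without any mouse but 5 (-0.19 to -0.16). Without mouse 1 the smooth muscle list had 2 negative calls. Of 4 thymocyte genes 0 were called in limma, with 1 positive at an unadjusted p under 0.05, Cd1d1 being at 0.23 ± 0.24 (n = 5) and Cd8b1 at 0.14 ± 0.28. Of 6 cartilage genes 0 were called, with 0 at an unadjusted p under 0.05, Matn3 being at -0.145 ± 0.19 and Col9a1 at 0.08 ± 0.05.

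To find which genes behaved like each of the 5, the root mean square (RMS) difference of the log2 ratio over the 6 mice was taken against the other 8662 probes with 6 values, as a description. Nearest to Tnnt3 were Zdhhc14, a palmitoyltransferase, at an RMS difference of 0.11, Apbb1, an adaptor that binds the amyloid precursor protein, at 0.115 and Pcdh12, a protocadherin of endothelial cells, at 0.136. Nearest to Eno3 were Endog, a mitochondrial endonuclease, at 0.084, the glutamine transporter Slc1a5 at 0.099 and Ubtd1 at 0.105. None of these 6 was in a muscle list.

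Nearest to Mylpf were Ncapg, a condensin subunit needed in mitosis, at an RMS difference of 0.209, the C-type lectin receptor Clec4a2 at 0.256 and Gins2, part of the replicative helicase, at 0.288. Nearest to Atp2a1 were Nadsyn1, which makes NAD, at 0.093, the C-type lectin receptor Clec4n at 0.247 and cyclin Ccnb2 at 0.28. All 6 were negative on average, like Mylpf and Atp2a1. Nearest to Myf6 were the prohormone convertase Pcsk1 at 0.055, the ubiquitin ligase Kcmf1 at 0.057 and the centrosomal Cep70 at 0.066, in a range where many probes with small ratios lie.

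The nearest gene to Atp2a1 was also a near neighbour by probe number. The log2 ratios of Nadsyn1 were -1.999, -0.99, 0.15, -1.70, -1.50 and -1.73 in mice 1 to 6, within 0.121 of Atp2a1 in every mouse, and its probe lies 6 numbers before that of Atp2a1. Of 113 pairs of probes 6 numbers apart whose later member is at least 1 from 0, 1 had an RMS difference under 0.1, and it is this pair. The limit of 0.1 was set with this pair, at 0.093, in view, so the count is a description and no test. The median RMS difference of the 113 pairs was 1.45. A further probe, that of the haem exporter Flvcr1, lies 18 numbers after Atp2a1, with -1.76, -0.51, 0.13, -1.36, -1.23 and -1.27. It ranked 5th of 8662 by RMS difference (0.34). All 3 probes were low in 5 mice and slightly positive in mouse 3. This course is not particular to neighbours. Clec4n and Ccnb2, whose probes are far from that of Atp2a1 by number, had it too, at RMS differences of 0.247 and 0.28. The array of mouse 3 had the fewest values at -1 or below, 14. The other 4 tested probes at distances of 6, 18 or 24 did not share this course: a probe without a symbol 6 after Atp2a1 had a mean of 0.18, Rffl, 18 before, 0.11, Gpr27, 24 before, -0.04 and 2610008E11Rik, 24 after, -0.27.

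Mylpf had a neighbour farther from 0 on the same side at 18 and at 24 numbers before it. A probe without a gene symbol 18 numbers before it had -4.59, -3.79, -0.17, -3.50, -1.18 and -2.77, and the probe of Saa3, an acute-phase protein, 24 numbers before it had -5.95, -5.21, -0.007, -5.04, -3.84 and -3.03. Like Mylpf, the unnamed probe was lowest in mouse 1 and nearest to 0 in mice 3 and 5, while Saa3 was near 0 in mouse 3 alone. Ncapg, Clec4a2 and Gins2, far from Mylpf by probe number, were also lowest in mouse 1 and nearest to 0 in mice 3 and 5. The array of mouse 1 had the most values at -1 or below, 353, and those of mice 3 and 5 the fewest, 14 and 137. Whether Mylpf and the unnamed probe share more than this array-wide difference was not tested. Without mouse 3 the mean of Saa3 was -4.62 in place of -3.85. The other 4 tested probes at these distances from Mylpf lay nearer to 0 or on the other side: a probe without a symbol 6 before it had a mean of 0.44, Wac, 6 after, -0.69, Ywhaq, 18 after, 0.02 and Tead4, 24 after, -0.05. The probe of Tnnt3 lies 4 numbers from that of Mylpf and was on the other side of 0 in every mouse.

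**Figure D4:**
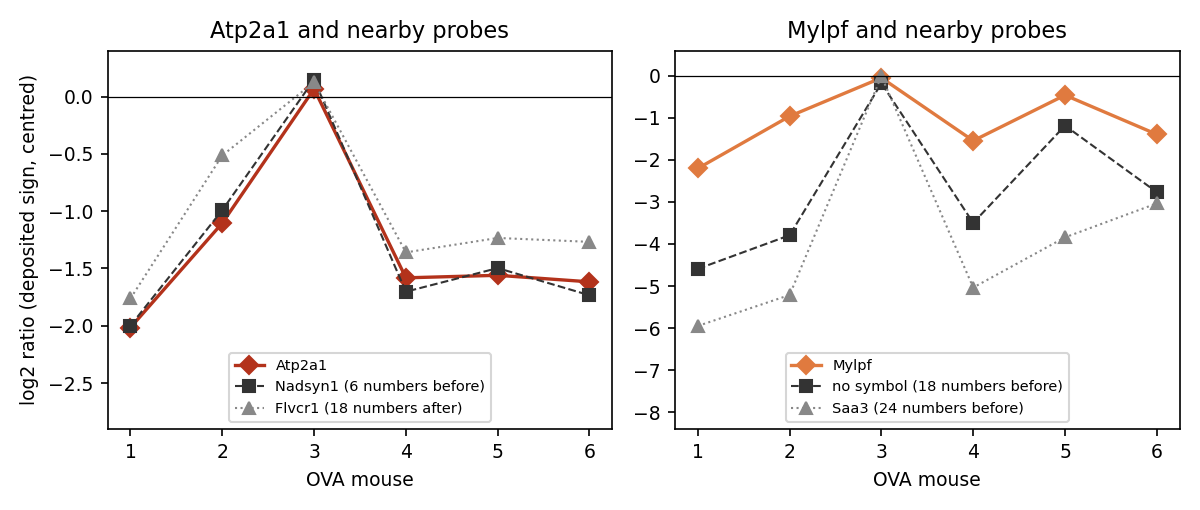
Log2 ratios (vertical axes, deposited sign, with different ranges) of Atp2a1 with the probes of Nadsyn1 and Flvcr1, and of Mylpf with a probe without a symbol and that of Saa3, in each OVA mouse (horizontal axis). Nadsyn1 lies within 0.121 of Atp2a1 in each mouse, and both neighbours of Mylpf lie below it in every mouse, apart from Saa3 in mouse 3.

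Over all tested probes, mean log2 ratios of probes 6, 18 and 24 numbers apart had Pearson correlations of 0.133, 0.102 and 0.106, over 9284, 8947 and 9261 pairs that are not independent. At the other 57 distances up to 60 the correlation was between -0.023 and 0.046. No print layout was available to set the 3 distances apart beforehand, so their place above the rest in these same data is no test. None of the tested probes at these 3 distances from Tnnt3, Eno3 or Myf6 lay farther from 0 on the same side. Fewer positions could be read for Tnnt3, with no tested probe 18 before it, and for Myf6, with none before it at any of the 3 distances. Beside Eno3, the probe farthest out on its side was that of Puf60, 18 numbers before it, at 0.37. Whether the ratios of Atp2a1 and Mylpf come from their own transcripts or move with these neighbours was not tested.

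**Figure D5:**
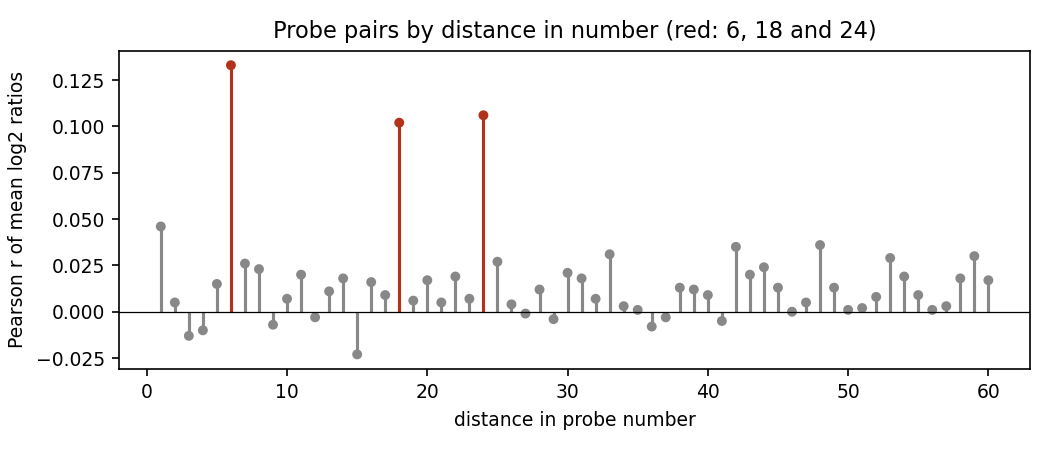
Pearson correlation of the mean log2 ratio (vertical axis) between tested probes, by the distance in probe number (horizontal axis, 1 to 60). Distances of 6, 18 and 24, in red, stand above the other 57.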

How the data were processed

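The authors deposited 1 log ratio per probe and array, read here as log2; per the labels, each array set an OVA mouse against a control pool. The sources used here do not give the scanner, or how background, normalization and spots were handled. The table has 17280 rows; the platform annotation gives 14722 of them 1 symbol, 1 several and 2557 none, and 14445 symbols were updated through a RefSeq gene table (GRCm38.p6, for names). Each array was centred on its median (-0.012 to 0.008 removed) over probes with all 6 values. A set of 170 rows repeating 10 sequences and 4 plant rows were left out. Probes with at least 4 values were fitted with limma 3.58.1 in R 4.3.3 (intercept, eBayes, two-sided); the fit was tested on simulated data. The pool counts as 1 control sample, so variation among control mice is not in the test, and a bias between the dyes would remain, as no swapped array is known. The labels do not say how the mice were handled beyond their treatment; p-values measure the spread between these 6 arrays, whose number limits the precision.

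Lists used 1 probe per gene, the one with most values and then the lowest number. The members and lists were chosen with earlier results of these data known. Named were up to 4 called genes of largest mean per list (or 2 where none was called). All testable genes of the list of relatives were named too, with the 3 most similar genes per member. So were neighbours 6, 18 or 24 numbers away that lie farther out on the same side. Flvcr1, Tnnc2, Tnni2, Acta1, Myh2, Chrng, Ryr1, Casq2, Sln, Jph1, Atp2a2, Myod1, Puf60 and the other neighbours of Atp2a1 and Mylpf fall outside this rule and were picked with their values in view. The results were also computed without centring, after scaling or quantile normalization, with weighted arrays, with robust eBayes, with values required on 3 or on 6 arrays, at a threshold of 0.01, as medians and without each mouse. Figures were drawn with matplotlib 3.10.9.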

Additional observations from a re-analysis of the deposited data

Results flagged for a closer look

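The C-type lectin receptor gene Clec4n, one of the 3 genes most like Atp2a1, was at 0.261 in mouse 3, while its other values lay between -1.91 and -1.33. This gap is 0.733 of the whole range of its 6 values, past the limit for 1 sample standing apart. Chance alone flags about 1 in 20 groups, and of 66 genes examined this way 1 passed the limit. Some of these genes were picked for similar ratios, so they are not independent and nothing is read from this count. The array of mouse 3 stood apart as a whole, with 14 values at -1 or below against 137 to 353 on the others. Of the 5 skeletal muscle genes, 0 had a mouse past this limit, Atp2a1 in mouse 3 included.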

How the results depend on the processing

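The means of the 5 genes kept their sign and moved by less than 1 SD under no centring, scaled or quantile-normalized arrays, array weights, medians over mice and leaving out each mouse. With 1 mouse left out in turn, Tnnt3 ranged from 0.62 to 0.79, Eno3 from 0.58 to 0.73, Atp2a1 from -1.58 to -1.159, Mylpf from -1.31 to -0.88 and Myf6 from -0.26 to -0.24. The 2832 probes called in all became 746 at an adjusted p of 0.01 and ranged from 1325 to 3036 with 1 mouse left out, 1325 without mouse 4, 1376 without mouse 2 and 1708 without mouse 6. The other muscle genes called positive, 20, became 6 at 0.01 and ranged from 10 to 28 with 1 mouse left out, and those called negative, 2, became 0 at 0.01, 1 with a value on all 6 arrays and 4 with a value on at least 3, and ranged from 0 to 3. Omitting probes that lie 6, 18 or 24 numbers from a probe at least 1 from 0 and farther out on the same side, chosen after seeing the data, dropped Mylpf but not Atp2a1 and left 2650 probes called, with 19 positive and 2 negative muscle genes. Atp2a1 stayed because its mean, -1.302, was slightly farther from 0 than that of Nadsyn1, -1.296. Nadsyn1 and Flvcr1 were dropped in its place, so this omission cannot show whether Atp2a1 moves with its neighbours. No paired analysis was possible because all arrays form 1 group. Several fast fibre genes, such as Tnni2 and Pvalb, had too few values to be tested.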
